A study of Mus musculus with 32 samples.

Results

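The mouse zinc finger genes named Zfp1 to Zfp99 were followed through DNA methylation profiles of 4 organs. They were taken as every row of the deposited gene table whose symbol is Zfp with a number of at most 2 digits, leaving out Zfp42, which gave 49 genes of 27179. The profiles come from MeDIP-seq: DNA fragments carrying 5-methylcytosine (5mC) are captured with an antibody and sequenced. Mouse brain, heart, kidney and liver were either flash-frozen or preserved as FFPE tissue, meaning formalin fixation followed by paraffin embedding. The labels give no genotype, strain, sex, age or agent, and do not say whether replicates came from separate animals. They list 2 replicates per organ, preservation and antibody, made in separate experiments, while the table holds 1 column per organ and preservation. The 8 columns, each called a library here, therefore carry no replicate inside a group, and whether they hold pooled replicates is unknown. They name no antibody and were read as the 5mC samples.

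Most genes with the Zfp symbol encode proteins with C2H2 zinc fingers, short loops held by zinc that read DNA sequence. Many of these proteins also carry a KRAB domain, which recruits the corepressor Trim28 and, through it, enzymes that deposit repressive histone and DNA methylation, often over transposable elements. KRAB zinc finger genes lie in clusters formed by repeated duplication. The symbol does not define a family strictly: Zfp36 encodes tristetraprolin, a CCCH-type protein that binds AU-rich messenger RNAs and speeds their decay. Zfp91 encodes a ubiquitin ligase of the NF-kappaB pathway. Zfp57 is the KRAB protein that keeps methylation on imprinted regions after fertilisation.

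The reads counted on all 27179 genes numbered 2164158 to 3699218 per library, and the 49 genes held 4972 to 14401 of them, 0.225% (frozen brain) to 0.419% (FFPE liver) of the reads. Values are reads per 1000000 (CPM) of the authors' scaled library sizes. The frozen kidney library stood apart, with 0 reads on 2999 genes against 880 to 2380 in the others, and counts below are also given without a library where it moved them. The 5mC signal over marker genes served as a check of the organ labels: 6 of 7 hepatocyte genes were lower in liver, 5 of 7 neuronal genes lower in brain and 4 of 7 cardiomyocyte genes lower in heart, while 0 of 7 kidney tubule genes were lower in kidney. In bulk tissue a shift in cell make-up and a shift in methylation per cell cannot be told apart.

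As examples of promoter sequence, the 100 bases before the transcript start are given for 8 genes. They were picked among genes whose listed start lies at the edge of the annotated gene, which leaves out Zfp13 and Zfp46. The first 4 are neighbours on chromosome 7 that were higher in liver. Zfp1 and Zfp39 were also higher in liver, Zfp85 was lower there, and Zfp36 had reads almost only in brain. Capitals mark CpG dinucleotides, the usual site of 5mC in mammals. All are from RefSeq on GRCm38.p6, the assembly behind mm10, written 5′ to 3′ on the strand of the gene, at chr7:29768452-29768551 (Zfp84, plus), chr7:29783868-29783967 (Zfp30, plus), chr7:30051397-30051496 (Zfp14, minus), chr7:30072824-30072923 (Zfp82, minus), chr8:111643343-111643442 (Zfp1, plus), chr11:58904226-58904325 (Zfp39, minus), chr13:67755203-67755302 (Zfp85, minus) and chr7:28379229-28379328 (Zfp36, minus).
Zfp84: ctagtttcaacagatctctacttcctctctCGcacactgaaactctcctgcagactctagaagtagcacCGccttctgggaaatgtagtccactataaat
Zfp30: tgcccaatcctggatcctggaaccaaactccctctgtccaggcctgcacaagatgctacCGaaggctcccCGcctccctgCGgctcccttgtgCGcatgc
Zfp14: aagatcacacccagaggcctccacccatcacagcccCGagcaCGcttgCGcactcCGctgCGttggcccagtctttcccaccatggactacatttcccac
Zfp82: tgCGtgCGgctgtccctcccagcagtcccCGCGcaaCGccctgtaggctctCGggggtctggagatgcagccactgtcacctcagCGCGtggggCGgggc
Zfp1: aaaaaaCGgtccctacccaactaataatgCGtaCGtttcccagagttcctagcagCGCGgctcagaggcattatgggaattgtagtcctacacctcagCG
Zfp39: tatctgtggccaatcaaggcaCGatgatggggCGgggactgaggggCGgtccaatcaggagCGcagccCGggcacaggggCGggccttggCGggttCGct
Zfp85: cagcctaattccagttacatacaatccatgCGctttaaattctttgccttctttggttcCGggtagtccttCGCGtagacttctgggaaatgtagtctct
Zfp36: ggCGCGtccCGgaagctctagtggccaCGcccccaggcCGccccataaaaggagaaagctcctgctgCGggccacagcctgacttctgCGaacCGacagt

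The table of promoter windows (250 bases before to 50 after the start) matched 40 of the 49 genes, and for some of them the listed start lies inside the annotated gene. Their windows held 1 (Zfp27) to 34 (Zfp3) CpGs, with a median of 12, against a median of 7 over 27025 genes. At least 10 CpGs were present in 60.0% of them and in 44.0% of all windows. Among the genes shown, Zfp36 had 21 CpGs in its window, Zfp82 18, Zfp39 18, Zfp1 15, Zfp14 12, Zfp84 9, Zfp30 9 and Zfp85 6. The 3 genes lower in liver had 5 to 7 CpGs, the 15 matched genes higher in liver a median of 12 and the 22 that did not pass a median of 12.5. Spearman's rho between CpG number and the liver difference was 0.21 over the 40 genes, a description across genes that share their libraries. The deposited table gives 1 value per gene, so promoter methylation itself was not read.

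All 49 genes passed the filter of at least 1 CPM in at least 2 libraries, which 25982 genes of the table passed, and 37 had a mean log2 CPM above the median of all tested genes. The median of their mean log2 CPM was 5.36, against 4.21 over tested genes on the annotation. Per kilobase of annotated gene the level ran from 0.136 CPM (Zfp91) to 25.6 CPM (Zfp46), with a median of 2.90 CPM, against 1.38 CPM over 24357 tested genes. The median annotated length was 15.7 kb for these genes and 15.4 kb in all. After Zfp46, the level per kilobase was highest in Zfp27 (16.3 CPM), Zfp84 (14.7 CPM), Zfp30 (12.0 CPM) and Zfp7 (11.9 CPM). It was lowest, besides Zfp91, in Zfp53 (0.173 CPM) and Zfp72 (0.174 CPM). The whole span of Zfp91 overlaps the gene Gm44505, and 237 of its bases the gene Lpxn, so reads of these genes may be shared. Zfp24, a SCAN-domain factor needed for myelination, stood at 1.38 CPM per kilobase, Zfp35, a gene of spermatocytes, at 1.56 CPM and Zfp37, a gene of testis and neurons, at 1.78 CPM. Whether the authors counted exons or whole genes is unknown, so these values rest on the gene span.

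**Figure D1:**
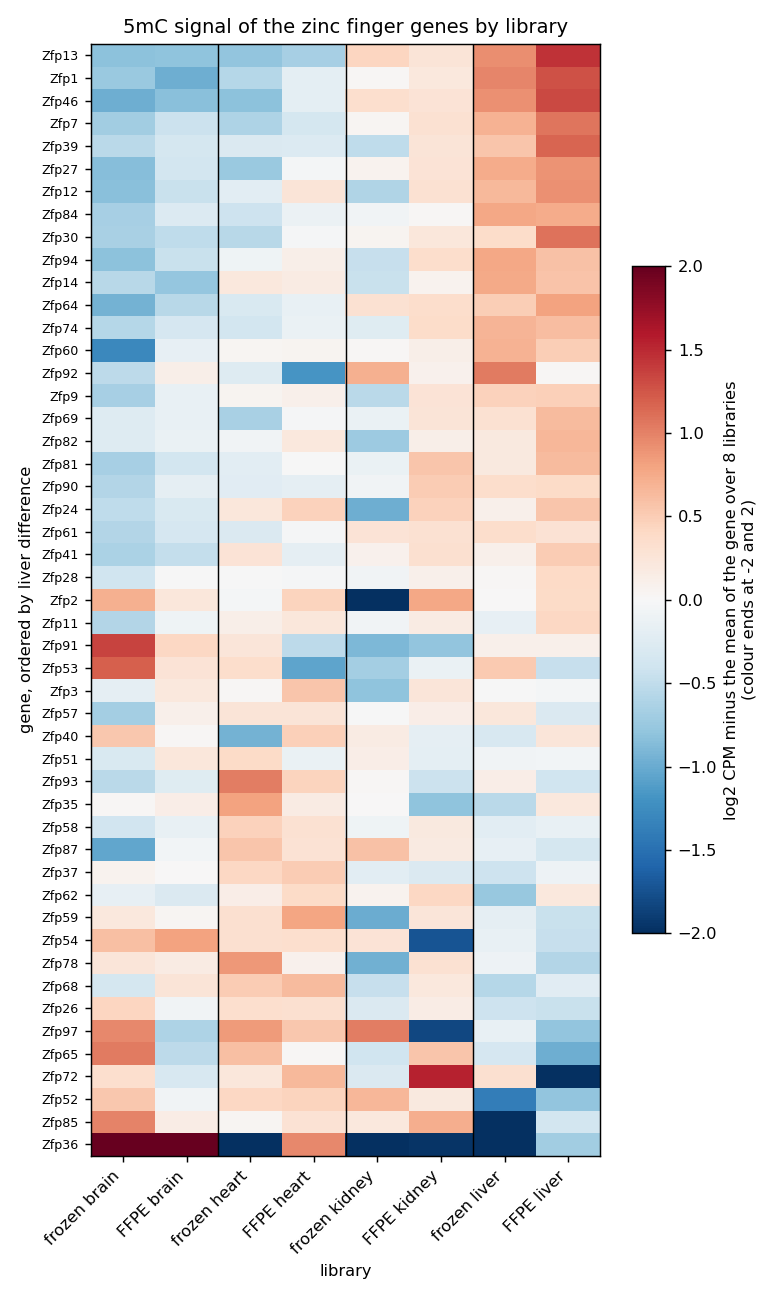
Colour gives the log2 CPM of each of the 49 genes (rows) in each of the 8 libraries (columns) minus the mean of the gene, with rows ordered by the liver difference and colour ending at -2 and 2. The upper rows are red in both liver libraries and blue in both brain libraries, and Zfp36 in the last row is darkest red in the brain libraries.

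Liver had more 5mC signal than the other organs on a large part of these genes. Of the 49 genes, 18 were higher in liver than the mean of the other 3 organs and 3 were lower (limma, Benjamini-Hochberg adjusted p under 0.05). These are 36.7% and 6.12% of them, beside 11.8% and 7.42% of all 25982 tested genes. The median log2 difference was 0.25, against -0.10 over all tested genes. In 16 genes both liver libraries lay above all 6 others, which was so for 11.7% of tested genes, and in 3 both lay below (10.3% of tested genes).

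Zfp13, a C2H2 factor on chromosome 17 (23569846 to 23599755), was at 289 and 413 CPM in frozen and FFPE liver, 205 and 181 CPM in kidney, 87.4 and 95.3 CPM in heart and 85.5 and 86.0 CPM in brain. Both liver libraries were above kidney, and kidney above heart and brain, with no overlap. It was 3.01-fold higher in liver than in the other organs (log2 1.59 ± 0.15 SE, limma adjusted p = 2.3e-05).

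Zfp46, on chromosome 4 (136284168 to 136293942), was at 404 and 533 CPM in frozen and FFPE liver, 269 and 259 CPM in kidney, 120.4 and 187 CPM in heart and 108 and 119 CPM in brain. The order of organs was that of Zfp13, again with liver above all other libraries. The liver difference was 1.49 ± 0.15 on the log2 scale (2.81-fold, limma adjusted p = 2.7e-05).

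Zfp1, on chromosome 8 (111643443 to 111671108), was at 176 and 219 CPM in liver, 91.1 and 104 CPM in kidney, 60.7 and 78.6 CPM in heart and 53.4 and 45.4 CPM in brain, frozen before FFPE in each organ. No library of a lower organ reached liver or kidney. It was 2.83-fold higher in liver (log2 SE 0.16, limma adjusted p = 4.3e-05).

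Of the other called genes, Zfp7 rose by 1.17 in liver, Zfp39 by 1.15, Zfp27 by 1.10, Zfp12 by 1.04, Zfp84 by 1.02, Zfp30 by 0.97 and Zfp64 by 0.87 on the log2 scale. Zfp30 has been tied to neutrophil recruitment in mouse airways and Zfp64 to Notch signalling. The remaining 8 were Zfp94 (0.90), Zfp14 (0.88), Zfp74 (0.87), Zfp60 (0.80), Zfp9 (0.62), Zfp69 (0.62), a gene associated with diabetes in obese mice, Zfp82 (0.57) and Zfp90 (0.48). Zfp61 and Zfp94 overlap by 2137 bases on chromosome 7, and the counting of reads in the overlap is unknown. Zfp61 itself was at 0.43 ± 0.15 (adjusted p = 0.0559).

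Of the 3 genes lower in liver, Zfp52 and Zfp85 had few reads. Zfp52, in a cluster on chromosome 17, was at 6.72 and 10.2 CPM in frozen and FFPE liver (23 and 27 reads). It was at 25.8 and 17.0 CPM in brain, 23.9 and 24.2 CPM in heart and 28.2 and 20.3 CPM in kidney, all above liver. The liver value fell by 1.45 ± 0.32 in log2 units (limma adjusted p = 0.00499). Zfp85, on chromosome 13, had 10 and 25 reads in frozen and FFPE liver (2.92 and 9.47 CPM) and 36 to 59 reads elsewhere. In CPM, brain stood at 24.6 and 13.7, heart at 12.6 and 15.1 and kidney at 14.3 and 20.3, again above liver. It fell by 1.60 ± 0.44 (limma adjusted p = 0.0182), and its whole span overlaps the antisense gene Zfp85os, so reads of these overlapping genes may be shared. Zfp26 was at 42.6 and 41.7 CPM in liver, 77.1 and 54.1 CPM in brain, 71.6 and 71.1 CPM in heart and 46.4 and 63.3 CPM in kidney. Liver was lowest but close to frozen kidney, and the fall was 1.49-fold (adjusted p = 0.0465).

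The liver difference moved with the level of the gene. The 18 higher genes had a mean log2 CPM of 5.79 to 7.74, and the 3 lower genes 3.64 to 5.84. Spearman's rho between mean log2 CPM and the liver difference was 0.81 over the 49 genes, and 0.48 over all 25982 tested genes, as a description across genes that share their libraries. The spread of log2 CPM over all genes was also wider in the liver libraries (SD 2.74 frozen, 2.81 FFPE) than in brain (SD 2.07 and 2.35). FFPE heart had an SD of 2.50, and frozen heart lay between the brain libraries. Kidney had an SD of 2.91 in the frozen and 2.57 in the FFPE library. With quantile normalization, which gives every library the same distribution, 11 genes were higher and 2 lower, beside 5.1% and 4.98% of all tested genes. With libraries centred on their medians the counts were 23 and 2, beside 18.6% and 4.77%. The part of level and spread in the result was otherwise not tested. Summed over 7 hepatocyte genes, liver had 90.5 to 111 CPM and the other organs 254 to 348 CPM, and 5 blood and immune genes stood at 76.5 to 88.8 CPM in liver, 69.5 to 98.8 CPM in kidney and 144 to 188 CPM in heart and brain, with no marker at 0 reads in both libraries of an organ. Their part in the result was not tested. Leaving out either liver library lowered the number of genes called higher among the 49, as it did among all tested genes. The median liver difference was 0.33 without frozen liver and 0.30 without FFPE liver, against -0.08 and -0.03 over all tested genes. These fits return the liver differences within FFPE and within frozen tissue. The medians by preservation given below are thus the same values and no separate support. The number of lower calls changed when any 1 library except FFPE brain was left out, and that of all tested genes changed in every such fit. In limma without the variance trend, 0 of the 49 genes and 0 of all tested genes were called in either direction. An unadjusted p under 0.05 was reached by 20 of the 49, against 24 with the trend. With the trend 8460 of the 25982 tested genes reached it. Zfp85 lost its call without frozen brain, either heart library or frozen liver (adjusted p = 0.428), and Zfp52 without frozen liver (adjusted p = 0.169). Zfp26 lost it without any 1 of 6 libraries (all but FFPE brain and frozen kidney), with no filter, with centred libraries and with voom weights. Zfp9, Zfp14, Zfp60, Zfp69, Zfp74, Zfp82, Zfp90 and Zfp94 also did not pass without frozen liver, and Zfp9, Zfp30, Zfp60, Zfp69, Zfp82 and Zfp90 without FFPE liver. Zfp90 lost its call with no filter and when any 1 brain or heart library was left out, Zfp9 without frozen brain or FFPE heart, Zfp82 without FFPE brain or FFPE heart and Zfp60 without FFPE heart. Under quantile normalization Zfp9, Zfp60, Zfp64, Zfp69, Zfp74, Zfp82, Zfp85 and Zfp90 did not pass.

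**Figure D2:**
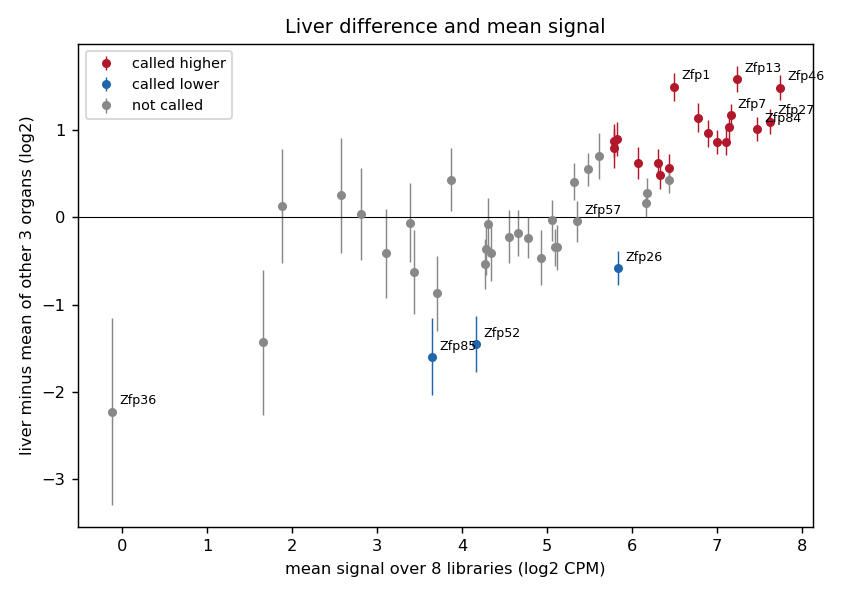
The liver difference (log2, with SE bars) is plotted against mean log2 CPM for the 49 genes, coloured by call. The 18 genes called higher all lie at a mean log2 CPM of 5.79 or above, and Zfp26 is the gene called lower that has a comparable level.

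The liver difference had the same sign in frozen and FFPE tissue for 40 of the 49 genes (81.6%, against 71.2% of all tested genes), which are values with no test. The median was 0.30 in frozen and 0.33 in FFPE libraries. Zfp13 differed by 1.32 in frozen and 1.85 in FFPE tissue and Zfp46 by 1.41 and 1.57. Zfp85 differed by -2.44 in frozen and by -0.76 in FFPE tissue. The values furthest apart were those of Zfp72 (0.23 and -3.10), which had 13 reads in frozen and 1 in FFPE liver. The brain difference had the same sign in both preservations for 33 of the 49 genes (67.3%, against 76.9% of all tested genes). For heart the count was 37 (75.5%, against 64.1%), for kidney 25 (51.0%, against 57.3%) and for brain against liver 39 (79.6%, against 77.7%).

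**Figure D3:**
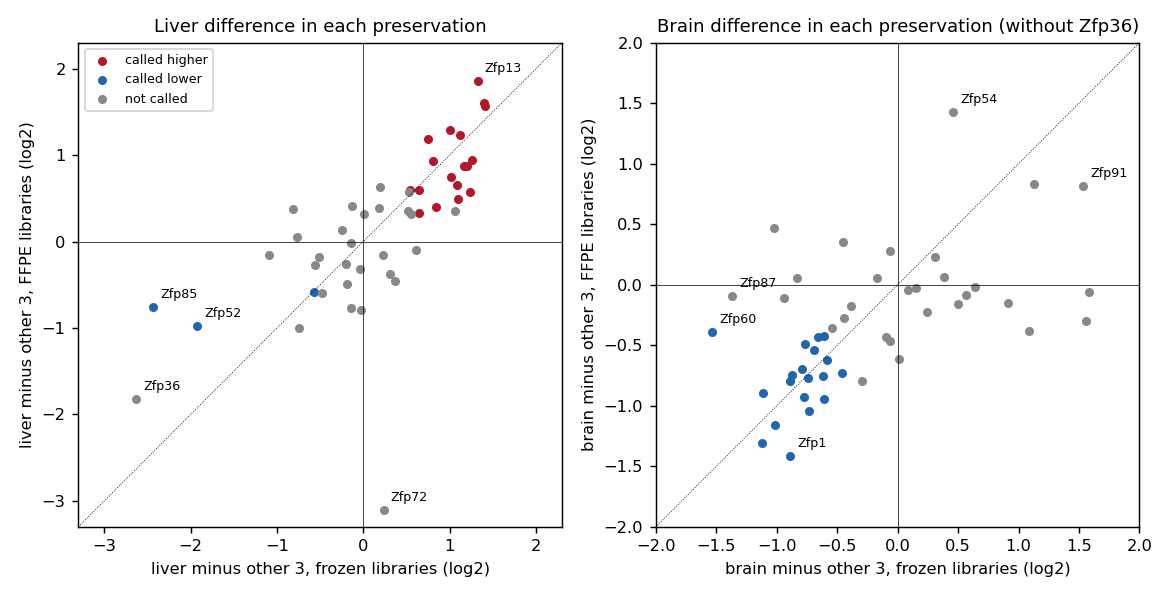
The difference of liver (left) and brain (right) from the other 3 organs is plotted for FFPE libraries against frozen libraries, 1 point per gene coloured by call, with equality as a dotted line. All 18 genes called higher in liver lie above 0 on both axes, and Zfp36 (7.46 frozen, 4.95 FFPE) is left out of the brain panel.

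In brain the signal was lower on many of these genes and higher on Zfp36. Of the 49 genes 19 were lower in brain than the mean of the other 3 organs and 1 was higher. These are 38.8% and 2.04%, beside 12.8% and 8.61% of all tested genes (limma, adjusted p under 0.05). The median log2 difference was -0.36, against 0.11 over all tested genes. The brain and liver contrasts use the same 8 libraries and are not independent.

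In log2 units and with limma adjusted p in parentheses, Zfp46 fell in brain by 1.22 ± 0.15 (0.000117), Zfp13 by 1.09 ± 0.15 (0.000262) and Zfp1 by 1.16 ± 0.16 (0.000286), each with the library values given above. Zfp64 was 2.01-fold lower (adjusted p = 0.000287). For Zfp64, brain had 66.3 and 86.9 CPM, heart 103 and 116 CPM, kidney 158 and 163 CPM and liver 180.2 and 225 CPM, frozen before FFPE, so the organs did not overlap. For Zfp13 the brain libraries lay just below those of heart. Zfp14 fell by 0.89, Zfp12 by 0.85, Zfp27 by 0.81, Zfp30 by 0.78, Zfp7 by 0.76 and Zfp84 by 0.63. The other 9 that fell, by 0.51 to 0.96, were Zfp60, Zfp94, Zfp61, Zfp74, Zfp39, Zfp81, Zfp41, Zfp90 and Zfp9. In 9 genes both brain libraries lay below all others (11.7% of tested genes), and in 3 above (16.5%), namely Zfp36, Zfp54 and Zfp91.

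Zfp36, a gene of 2.445 kb on chromosome 7 (28376784 to 28379228), had 66 reads in frozen brain and 64 in FFPE brain. Heart gave 0 and 4 reads (frozen, FFPE), both kidney libraries 0, and liver 0 and 1. The brain libraries together held 130 reads, and no other library overlapped them. Over both libraries brain was at least 40.8-fold higher than kidney, taking 3 reads as the limit that 0 reads over the organ allow. It was 30.4-fold higher than heart (95% exact interval 11.6 to 113) and 137-fold higher than liver, where 1 read leaves an interval of 24.2 to 5458, counting error only. The fitted difference, whose size depends on the 0.5 reads added to each count, was 6.21 ± 1.07 (limma adjusted p = 0.00111) and ranked 1 of 25982 genes. Zfp36 passed the filter through its brain libraries and FFPE heart, so its passing is not separate from its high brain values. Without frozen brain its difference was 4.95 and not called (adjusted p = 0.146), without FFPE brain 7.46 (adjusted p = 0.017), and over the settings run the call was also lost without the variance trend. In the other contrasts Zfp36 was at -0.95 in heart, -3.03 in kidney, -2.23 in liver and 1.36 between FFPE and frozen tissue, none called.

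**Figure D4:**
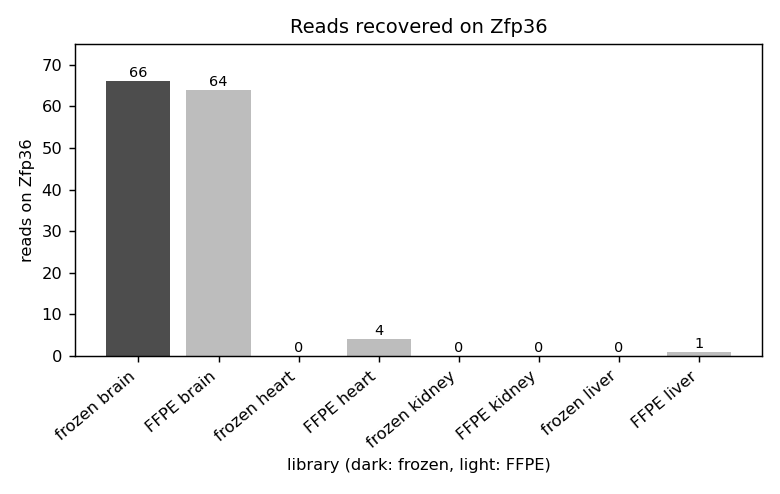
Bars give the reads recovered on Zfp36 in each of the 8 libraries, frozen in dark and FFPE in light grey. Frozen and FFPE brain hold 66 and 64 reads, and no other library holds more than 4.

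Zfp91 had its largest values in brain too, with 22 and 16 reads in frozen and FFPE brain and 4 to 13 elsewhere, and its difference of 1.17 ± 0.65 did not pass the test (adjusted p = 0.203). Of the 49 genes, 8 were lower (2.52% of all tested genes) and 0 higher once frozen brain was left out, and 11 and 1 once FFPE brain was (6.41% and 1.16% of all tested genes). Zfp9, Zfp39, Zfp41, Zfp61, Zfp74, Zfp81, Zfp90 and Zfp94 lost the brain call when either of the brain libraries was left out, Zfp27, Zfp36, Zfp60 and Zfp84 without frozen brain and Zfp14 and Zfp30 without FFPE brain. Zfp9, Zfp39, Zfp41, Zfp81 and Zfp90 did not pass without frozen heart, Zfp9 and Zfp90 without FFPE heart or frozen liver, and Zfp41 without FFPE liver. Zfp9 also lost its call with no filter and with voom weights. The number of higher calls changed when either kidney library was left out, as did that of all tested genes. Without the variance trend 0 genes were called (19 at an unadjusted p under 0.05, against 22 with it). With the trend 9540 of the 25982 tested genes were at an unadjusted p under 0.05. Centring the libraries gave 21 lower and 1 higher, beside 18.8% and 6.17% of all tested genes, and quantile normalization 13 and 1, beside 11% and 9.97%, with Zfp7, Zfp9, Zfp39, Zfp61, Zfp74, Zfp84 and Zfp90 no longer passing. Spearman's rho with mean log2 CPM was -0.80 over the 49 genes and -0.55 over all tested genes.

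Set directly against liver, brain was lower on 21 genes and higher on 3, that is 42.9% and 6.12%, beside 15.8% and 12.7% of all tested genes. Zfp46 was 4.08-fold lower in brain than in liver (log2 -2.03 ± 0.18, limma adjusted p = 7.2e-06), Zfp13 4.02-fold lower and Zfp1 3.98-fold lower. Zfp52 (1.32 ± 0.39) and Zfp85 (1.77 ± 0.54) were the genes higher in brain besides Zfp36. In 23 genes the libraries of brain lay wholly below those of liver (29.2% of tested genes), and in 9 wholly above (38.5%). Without the variance trend 9 genes were lower and 1 higher, beside 3.58% and 5.23% of all tested genes. The median difference of the 49 genes was -0.32 without frozen brain and -0.38 without frozen liver, against 0.13 and 0.17 over all tested genes. Zfp36, Zfp52 and Zfp85 lost their higher call without frozen brain, and Zfp9, Zfp41, Zfp60, Zfp61, Zfp82 and Zfp90 their lower call. Without frozen liver Zfp52 and Zfp85 lost their higher call, and Zfp9, Zfp60, Zfp61, Zfp69, Zfp81, Zfp82 and Zfp90 their lower call. Without FFPE brain or FFPE liver Zfp41, Zfp69, Zfp81 and Zfp82 lost their lower call, Zfp82 also without either heart library. Zfp52 also lost its call with centred libraries and, with Zfp85, under quantile normalization. There Zfp9, Zfp61, Zfp69, Zfp74, Zfp82 and Zfp90 lost their lower call as well.

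Fewer genes passed in heart and kidney. In heart 3 genes were lower and 0 higher (6.12% and 0%, beside 1.97% and 0.162% of all tested genes). An unadjusted p under 0.05 was reached by 19 of the 49 genes and by 3804 of the 25982 tested genes. Array weights and voom weights each called 1 higher, beside 1.22% and 0.843% of all tested genes. The 3 were Zfp13 (-0.97 ± 0.15, limma adjusted p = 0.00561), Zfp46 (-0.68 ± 0.15) and Zfp7, at 93.4 and 112 CPM in heart, 88.0 and 106 CPM in brain, 147 and 176 CPM in kidney and 231 and 299.6 CPM in liver (-0.64 ± 0.13, adjusted p = 0.0187). Heart and brain overlapped for Zfp7, and kidney and liver lay above both. Lower calls numbered 0 without either heart library, 1 without FFPE liver (Zfp13), 5 without either kidney library and 1 (Zfp13) under quantile normalization. Without FFPE kidney 3 were higher, beside 2.73% higher and 5.36% lower of all tested genes, and without frozen kidney 1 was higher, beside 0.843% and 3.18%.

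Zfp93 had its largest values in heart without passing the test. It had 51.2 and 34.1 CPM in frozen and FFPE heart and 17.1 to 27.5 CPM elsewhere, a difference of 0.98 ± 0.26 (adjusted p = 0.0665). In 6 genes both heart libraries lay above all others, which was so for 4.78% of tested genes, and in 0 below (3.47%).

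In kidney 0 of the 49 genes were called in either direction (0.897% higher and 0.566% lower of all tested genes). An unadjusted p under 0.05 was reached by 6 of them and by 4843 of the 25982 tested genes. The voom weights called 2 higher, beside 3.3% of all tested genes. Without FFPE kidney 3 were higher and 4 lower, near the 5.86% and 8.71% of all tested genes in that fit. Zfp64 (0.44 ± 0.14) and Zfp13 (0.47 ± 0.15) had the smallest p (limma adjusted p = 0.113 each). In 0 genes both kidney libraries lay above all others (3.53% of tested genes) and in 1, Zfp91, below (4.38%). The kidney libraries differed on Zfp2, which had 3 reads in frozen kidney and 21 in FFPE kidney, beside 16 to 23 in the 6 others.

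Zfp57, the guardian of imprints, passed in no comparison. It stood at 25.4 CPM in frozen brain, 43.6 CPM in FFPE brain, 48.8 CPM in both heart libraries, 40.7 and 44.9 CPM in kidney and 47.6 and 33.3 CPM in liver. Frozen brain had the lowest value, and both heart libraries lay just above the rest. Its difference was -0.39 ± 0.23 in brain (adjusted p = 0.234), 0.34 in heart, 0.09 in kidney, -0.05 in liver, -0.26 for brain against liver and 0.10 between FFPE and frozen tissue. The X-linked gene Zfp92, a KRAB zinc finger gene, was at 100.2 CPM in frozen and 49.6 CPM in FFPE liver, 80.1 and 51.5 CPM in kidney, 40.7 and 21.4 CPM in heart and 33.8 and 52.9 CPM in brain. Its liver difference of 0.71 ± 0.26 did not pass (adjusted p = 0.0683). The sex of the mice is not given in the labels.

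Within 1 megabase of another of these genes lay 26 of the 49, in 8 blocks. The liver differences were all positive in 1 block, all negative in 1 and of both signs in 6. The block with the most genes spans 304 kb of chromosome 7 (29768552 to 30072823) and holds Zfp84, Zfp30, Zfp27, Zfp74, Zfp14 and Zfp82. All 6 were higher in liver, by 0.57 (Zfp82) to 1.10 (Zfp27), and 5 of 6 were lower in brain. Zfp84 was at 305 and 299 CPM in frozen and FFPE liver, 169 and 180.1 CPM in kidney, 133 and 165 CPM in heart and 112 and 148 CPM in brain. Of 8 other tested genes in the block, 3 were higher in liver, namely Zfp790 (1.04), Zfp420 and C230062I16Rik (1.22), which overlaps Zfp74, and 5 did not pass, among them Zfp940 at -0.55 and Zfp568 at 0.16. C230062I16Rik was also higher in FFPE than in frozen tissue (1.61 ± 0.19, limma adjusted p = 9.8e-05). The liver calls thus covered part of the block's genes. Zfp14, Zfp74 and Zfp82 lost theirs without frozen liver, Zfp30, Zfp82 and C230062I16Rik without FFPE liver, and Zfp74 and Zfp82 under quantile normalization.

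The block of chromosome 13 (67490167 to 67755202) holds Zfp58, Zfp87, Zfp65 and Zfp85, with liver differences of -0.23, -0.34, -0.87 and -1.60, of which the last passed. Of 5 other tested genes there 2 were lower in liver, Zfp748 (-1.24) and Zfp738 (-1.40), and 0 higher. Both lost their call without FFPE brain or either heart library and under quantile normalization, Zfp738 also without frozen brain or frozen liver, with centred libraries and with no filter, and Zfp748 without FFPE liver. In the block of chromosome 17 (21423227 to 21563362), Zfp52 fell, while Zfp54, Zfp51 and Zfp53 were at -0.41, -0.08 and 0.04. Genes of such young clusters are alike in sequence, and the treatment of multiply matching reads by the authors is unknown, so the values of single genes in them are uncertain. Of genes with no other within 1 megabase 9 of 23 were called higher in liver, and of those with a neighbour 9 of 26.

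**Figure D5:**
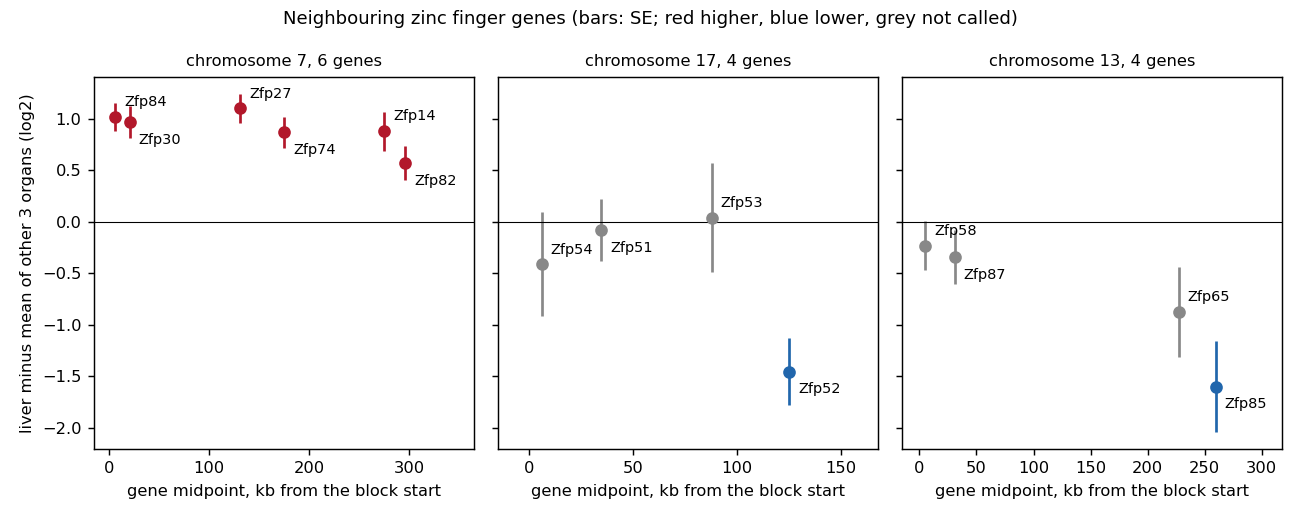
Liver differences (log2, with SE bars) are plotted by distance from the block start for the 3 blocks with at least 4 of the genes, coloured by call. All 6 genes of the chromosome 7 block lie above 0, and the 4 of the chromosome 13 block lie below 0.

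Among the 49 genes no difference passed the limma test between the preservations. Of the 49 genes 0 were called between FFPE and frozen tissue (0.62% higher and 0.735% lower of all tested genes). An unadjusted p under 0.05 was reached by 14 of them and by 2773 of the 25982 tested genes. Array weights called 2 higher (1.14% of all tested genes) and voom weights 1 (0.804%). The median FFPE minus frozen difference was 0.23, against 0.02 over all tested genes. Leaving out either brain library gave a median of 0.18, against 0.03 over all tested genes. In 14 genes FFPE was above frozen in all 4 organs (28.6%, against 10.1% of tested genes) and in 1 below (8.83%). Zfp12 came nearest to the threshold at 0.51 ± 0.13 (limma adjusted p = 0.067), with 78.8 and 104 CPM in frozen and FFPE brain, 121 and 168 CPM in heart, 92.6 and 173 CPM in kidney and 220.2 and 266 CPM in liver. The gene below in all 4 organs was Zfp97, with 50 and 23 reads in frozen and FFPE brain, 55 and 39 in heart, 72 and 6 in kidney and 33 and 16 in liver (-1.35 ± 0.42, adjusted p = 0.181).

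Genes with higher numbers were set beside them with no test of the difference. Of 255 tested genes named Zfp100 to Zfp899, 73 were higher (28.6%) and 15 lower in liver, and 86 were lower (33.7%) and 6 higher in brain. Of 58 named Zfp900 and above, 2 were higher and 3 lower in liver, and 2 lower and 1 higher in brain. The median liver difference was 0.28 for Zfp100 to Zfp899 and -0.22 for Zfp900 and above.

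The partners through which KRAB zinc finger proteins act were read from a list of 20 genes. In liver 4 were higher and 0 lower (20%, beside 11.8% higher of all tested genes): Chd4, a nucleosome remodeller (0.91 ± 0.13, limma adjusted p = 0.000316), Morc3, a chromatin ATPase (0.62), Atf7ip, the cofactor of Setdb1 (0.49), and Dnmt1, the maintenance methyltransferase (0.42). In brain 6 were lower and 0 higher (30%, beside 12.8% lower of all tested genes): Trim28, the corepressor itself (-1.03 ± 0.32, adjusted p = 0.0318), Atf7ip (-0.88), Chd4 (-0.72), Dnmt3a, a de novo methyltransferase (-0.67), Morc3 (-0.57) and Chd3 (-0.55). The median of the list was 0.12 in liver and -0.36 in brain. In kidney 1 of 20 was lower, Cbx5, which encodes a heterochromatin protein (-1.39 ± 0.32, limma adjusted p = 0.0435), beside 0.566% of all tested genes. In heart and between preservations 0 passed. An unadjusted p under 0.05 was reached there by 3 and 1 of the 20, beside 3804 and 2773 of the 25982 tested genes. These calls depended on the setting. Under quantile normalization 0 of the 20 passed in liver, where Dnmt1 turned to -0.11 (adjusted p = 0.68), and in brain Trim28 and Atf7ip stayed lower while Dnmt3b was higher (0.56). Without the variance trend 0 passed in liver, brain or kidney, and without frozen brain 0 passed in brain, against 3 without FFPE brain (Chd3, Trim28 and Morc3 lost). Trim28 also lost its brain call without either heart library or FFPE liver. In liver 2 passed without frozen liver, frozen brain or either heart library (Dnmt1 and Atf7ip lost each time), 3 without FFPE brain (Dnmt1 lost) and 1 (Chd4) without FFPE liver. Cbx5 lost its call in kidney without frozen brain, either heart library, frozen kidney or either liver library, without a filter and with array weights.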

How the data were processed

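Per the submitters' processing notes, Bowtie2, featureCounts and limma were used with mm10; their versions, the counted feature, strand and multiple matches are not stated. The values are log2 CPM as deposited by the authors, in the form of limma's voom (offset 0.5): 100% of them stepped back to whole reads (tolerance 1e-04), used for depth, CPM, intervals and voom weights. The labels list 16 5mC and 16 Input samples. Input was not analysed here.

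A limma model (R 4.3.3, limma 3.58.1) of organ plus preservation was fitted with a variance trend, 3 residual and 13.1 prior degrees of freedom. It covered 25982 genes reaching 1 CPM in 2 or more libraries, with Benjamini-Hochberg adjustment within each comparison and a threshold of 0.05. The p-values measure only how organ differences vary with preservation between these libraries, a spread that may be technical. In each comparison the called genes were named, up to 10 per direction in order of p, plus the remaining called genes in lists. Zfp57, Zfp36, the extremes of level per kilobase and the called partner genes were added. The other genes named with values were chosen after their values were seen, as were the CpG minimum and the printed sequences. The members and lists were chosen with earlier results of these data known. Entrez IDs placed genes on RefSeq GRCm38.p6 (49 of 49, and 25275 of 27179 in all). Ratios of Zfp36 carry exact Clopper-Pearson intervals; PCR copies are not independent molecules. Alternatives were quantile normalization, median centring, other filters, voom or array weights, no variance trend, and leaving out each library.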

Additional observations from a re-analysis of the deposited data

How the results depend on the processing

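No paired analysis was possible because the columns carry no replicate numbers. Quantile normalization called 11 genes higher in liver (5.1% of all tested genes) and 1 lower in heart (1.34%). Centring the libraries on their medians called 5 lower in heart (3.31%). Over all genes, centring shifted the median difference by 0.20 in liver, -0.15 in brain and -0.26 for brain against liver, and quantile normalization by 0.11, -0.14 and -0.21. Array quality weights called 2 higher in FFPE tissue (1.14% of all tested genes), and 1 higher and 6 lower in heart (1.22% and 4.4%). Voom weights called 1 higher in FFPE tissue (0.804%), 1 in heart (0.843%) and 2 in kidney (3.3%). Without the variance trend 0 genes were higher or lower in liver or in brain and 0 were lower in heart, also over all tested genes. Brain against liver then gave 1 higher and 9 lower, beside 5.23% and 3.58% of all tested genes. Leaving out 1 library at a time gave 10 to 21 genes higher and 0 to 6 lower in liver, 0 to 2 higher and 8 to 21 lower in brain, and 0 to 4 higher and 14 to 22 lower for brain against liver. It gave 0 to 3 higher and 0 to 5 lower in heart, 0 to 3 higher and 0 to 4 lower in kidney, and 0 higher and 0 to 1 lower in FFPE tissue. The counts of all tested genes moved in these fits as well. The cause of these shifts was not tested. Analysing without a filter, or with a mean of at least 4 CPM (48 of the 49 genes), kept every count of called genes among the 49 within 1.5 times. Over all tested genes, kidney calls fell from 233 higher and 147 lower to 107 and 51 without a filter. Of the 49 genes, 0 that were called changed sign under these alternatives, while among the partner genes Dnmt1 in liver did so under quantile normalization (-0.11), as did Dnmt1 (0.12) and Chd3 (0.02) for brain against liver. Few reads limit the values of Zfp36, Zfp72, Zfp85 and Zfp91.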
